A study of Mus musculus with 12 samples.

Results

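The cytokine TNF, its receptors and the NF-κB genes that its signal works through were followed in the rectum of mice with and without DSS colitis and with and without berberine. They were chosen by name as 9 genes of the 17734 in the expression table. By role they were the ligands Tnf and Ltb, the receptors Tnfrsf1a and Tnfrsf1b, the NF-κB subunits Nfkb2 and Relb, and the feedback inhibitors Nfkbia, Tnfaip3 and Birc3. All 9 passed the filter on low values, which kept 15315 genes. RNA-seq was done on rectal samples of 12 male C57BL/6 mice, 8 to 10 weeks old by the study's methods, in 4 groups of 3. Normal mice and normal mice receiving BBR had no DSS. Colitis mice and colitis mice receiving BBR had drunk DSS (dextran sulfate sodium, 2.5%), which injures the colonic epithelium, for 7 days. BBR is berberine, a plant alkaloid that was given by gavage daily, for 6 days by the sample labels and 7 by the methods. The labels mark every mouse as 7 days, and the methods place the end of such experiments at day 8. Each value is the mixture of all cells in a piece of rectum.

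TNF binds 2 receptors, a widely expressed one (TNFR1, encoded by Tnfrsf1a) and one found mostly on blood and endothelial cells (TNFR2, encoded by Tnfrsf1b). Signaling from them activates the IKK kinases, which mark the inhibitor IκBα for destruction and so free NF-κB to enter the nucleus, where it turns on inflammatory genes together with its own brakes: IκBα (Nfkbia), the ubiquitin-editing enzyme A20 (Tnfaip3) and the ubiquitin ligase cIAP2 (Birc3). A slower, non-canonical branch, which lymphotoxin (Ltb is its membrane-bound subunit) sets off, works through p100/p52 (Nfkb2) and RelB. In the intestine TNF is produced largely by macrophages and other leukocytes, and antibodies against it are used to treat inflammatory bowel disease.

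The start regions of these genes are shown because NF-κB binding in front of its own inhibitors is the textbook basis of this feedback. The 250 bases before the start of transcription were read from RefSeq promoter windows (mouse build GRCm38.p6). Windows were found for 8 of the 9 genes and none was found for Relb. They were searched on both strands for the 10-base κB consensus, and overlapping matches were kept. Some genes have several starts and so several windows. Of 32851 mouse windows 7.25% held a match, and of 27025 genes 8.23% held one in at least 1 window. Among the members the match was in 6 of 11 windows and in 4 of 8 genes, namely Nfkbia, Tnfaip3, Nfkb2 and Ltb, and no match was found in those of Tnf, Tnfrsf1a, Tnfrsf1b or Birc3, which says only that those letters do not occur in these windows. A window of 3 members with a match and those of Tnf and Tnfrsf1b, whose levels differed most between the groups, read 5′ to 3′ as follows, with matches in capitals.
Nfkbia (chr12:55492648-55492897, minus strand): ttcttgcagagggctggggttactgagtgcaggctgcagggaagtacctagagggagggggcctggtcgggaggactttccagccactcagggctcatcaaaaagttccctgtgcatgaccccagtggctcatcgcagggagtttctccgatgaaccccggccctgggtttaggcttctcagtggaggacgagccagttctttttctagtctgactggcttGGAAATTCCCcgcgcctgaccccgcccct
Tnfaip3 (chr10:19015411-19015660, minus strand): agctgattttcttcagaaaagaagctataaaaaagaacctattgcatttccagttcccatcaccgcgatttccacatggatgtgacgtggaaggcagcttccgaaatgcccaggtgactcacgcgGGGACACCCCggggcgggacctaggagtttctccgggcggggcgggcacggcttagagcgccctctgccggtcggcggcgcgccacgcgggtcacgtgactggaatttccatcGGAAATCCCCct
Nfkb2 (chr19:46304487-46304736, plus strand): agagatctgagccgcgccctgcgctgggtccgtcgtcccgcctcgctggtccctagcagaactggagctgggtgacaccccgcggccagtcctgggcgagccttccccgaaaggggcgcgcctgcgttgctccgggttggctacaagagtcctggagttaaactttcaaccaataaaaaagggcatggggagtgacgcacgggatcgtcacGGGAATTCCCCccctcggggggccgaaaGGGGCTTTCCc
Tnf (chr17:35202008-35202257, minus strand): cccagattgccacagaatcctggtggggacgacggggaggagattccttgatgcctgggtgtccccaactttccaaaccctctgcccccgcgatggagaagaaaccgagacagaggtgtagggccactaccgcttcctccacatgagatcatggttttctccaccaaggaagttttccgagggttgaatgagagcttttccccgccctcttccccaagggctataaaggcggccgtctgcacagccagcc
Tnfrsf1b (chr4:145246871-145247120, minus strand): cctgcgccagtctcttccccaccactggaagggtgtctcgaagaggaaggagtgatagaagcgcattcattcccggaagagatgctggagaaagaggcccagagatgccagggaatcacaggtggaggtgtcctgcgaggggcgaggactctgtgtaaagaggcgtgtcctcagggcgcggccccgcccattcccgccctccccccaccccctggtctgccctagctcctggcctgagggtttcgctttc
The Nfkbia match began 29 bases before the start, and the Tnfaip3 matches began 125 and 12 bases before it. In Nfkb2, matches at 39 and 38 bases before the start overlapped and another began 11 bases before it. Further windows exist for Nfkb2, with matches at 236 and 225 bases before their starts, and for Tnfaip3, with no match. A match is a run of letters here, since no binding was measured.

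Values are FPKM, reads per gene scaled to gene length and to library size, so that levels can be compared between genes. Differences between groups are on the scale of log2(FPKM + 0.1), each with its standard error, and were tested with limma over all 15315 genes. A gene is said to have changed where the Benjamini-Hochberg adjusted p was under 0.05, and calls by the study's own looser limit, an unadjusted P no higher than 0.05, are counted separately. Exact permutation tests were two-sided. The smallest exact p is 0.1 with 3 mice against 3, and 0.005 where colitis was permuted within each BBR arm.

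The mice numbered 4, 1 in each group, stood apart. Their values summed to between 482194 and 504337 FPKM, against 696286 to 765876 for the other 8 mice, and they had 872 to 1086 genes at 0 against 1332 to 1926. As each group held 1 of them, differences were also taken within the mice numbered 4 and within the rest. Colitis moved the median of all 15315 genes to −0.32 on the log2 scale, a shift that was −0.049 with quantile normalization and 0.018 with median centring. The labelled tissue was visible in its markers: the 8 epithelial markers summed to 6447 to 12612 FPKM over the 12 mice.

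In colitis mice, Tnf was the member that changed. It was about 34-fold higher than in normal mice in the fit, and 46.3-fold by the ratio of the group means. Over the alternative settings and the fits without 1 mouse, its log2 difference ranged from 3.596 to 5.53, against 5.08 in the main fit. Ltb and the 3 inhibitors among the 9 members stood within 1.56-fold of normal by their fitted values. The 95% interval of Ltb reached 4.57-fold. Of the 9 members, 1 passed the adjusted limit (1.08% of all tested genes did, and 0.653% did so higher), and 3 passed the unadjusted limit, all higher: Tnf, Tnfrsf1b and Nfkbia (21.4% of all genes passed it, 5.56% higher and 15.9% lower). The median of the 9 differences was 0.48, against −0.32 over all genes, and 8 of 9 were above 0. In 4 members no colitis mouse overlapped with a normal mouse, each with the colitis mice higher: Tnf, Tnfrsf1a, Tnfrsf1b and Nfkbia (7.1% of all genes were separated in this direction). No member was separated the other way (22.2% of all genes were). Between the groups receiving BBR, the colitis mice lay wholly above the normal mice in 1 member, Tnf (2.26% of all genes), and wholly below them in none (18% of all genes).

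**Figure D1:**
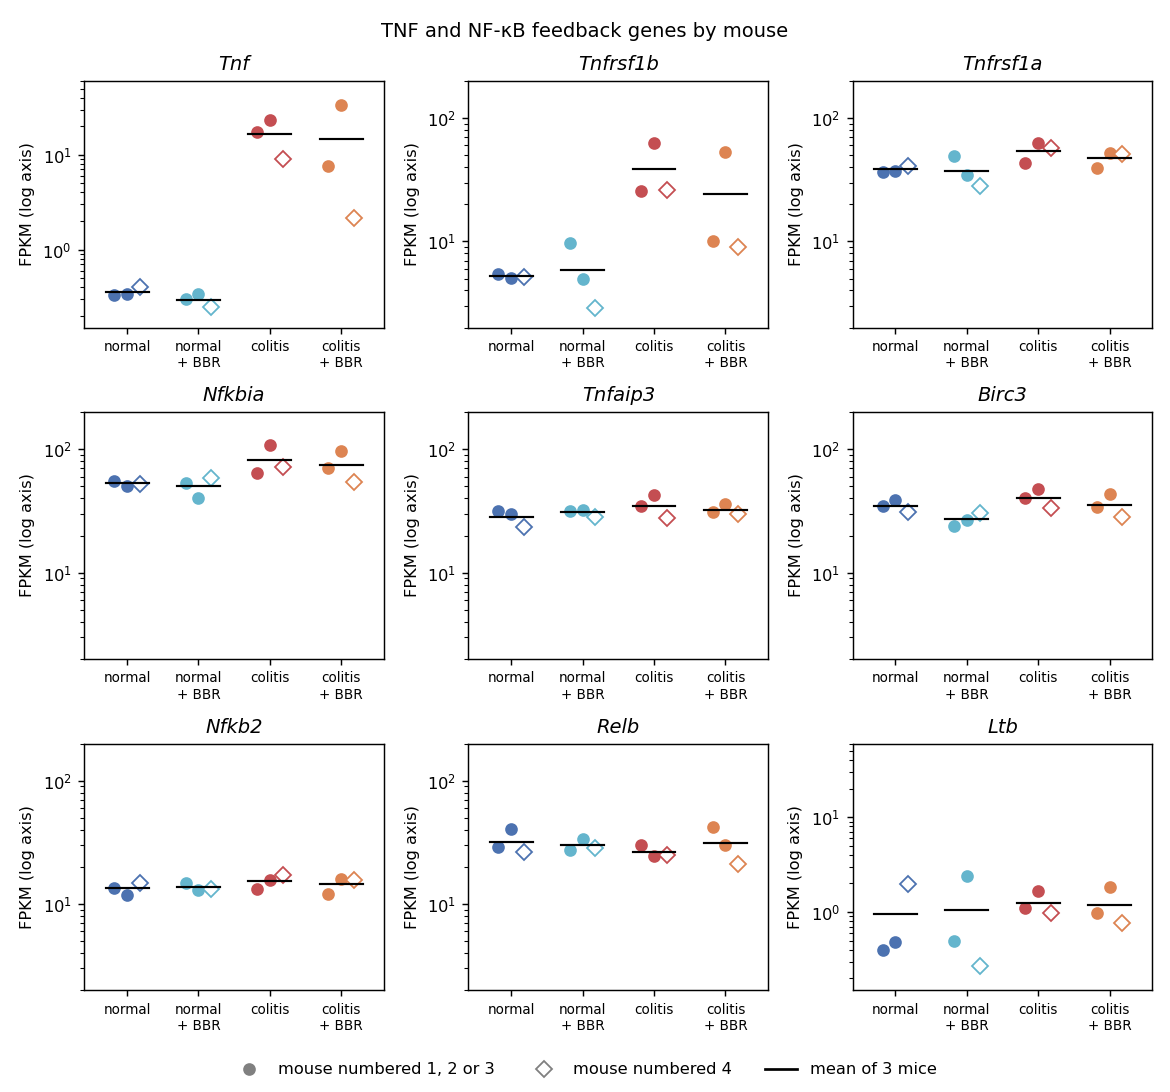
FPKM (log axis) of the 9 genes in each of the 12 mice, by group. Filled circles are mice numbered 1 to 3, open diamonds are mice numbered 4 and bars are means of 3 mice. Tnf lay between 0.25 and 0.40 in the 6 mice without DSS and between 2.15 and 33.84 in the 6 colitis mice, while Tnfaip3 lay between 23.3 and 42.7 and Nfkb2 between 11.9 and 17.1 in all 12.

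Among the ligands, Tnf read 0.33, 0.34 and 0.40 FPKM in the 3 normal mice and 17.2, 23.4 and 8.94 FPKM in the 3 colitis mice. The groups were far apart, and the normal level rested on few reads, an estimated 6.39 to 11.9 reads in each mouse without DSS. The rise was 5.08 ± 0.74 (SE) on the log2 scale, 33.9-fold with a 95% interval of 11.0 to 104 (adjusted p = 0.0141, exact permutation p = 0.1). It was 4.18 between the mice numbered 4 and 5.53 among the others. The adjusted p exceeded 0.05 when any of 4 mice was left out: it was 0.0769 without normal mouse 1, 0.0782 without normal mouse 3, 0.0551 without normal mouse 4 and 0.0670 without colitis mouse 1, with a rise of 4.999 to 5.15 in each case.

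Ltb, the membrane-bound lymphotoxin subunit, was the lowest of the 9 genes on average, with a mean of 1.11 FPKM over the 12 mice. It read 0.40, 0.48 and 1.98 FPKM in normal mice and 1.10, 1.68 and 0.97 FPKM in colitis mice, so a single normal mouse exceeded all the colitis mice. The difference of 0.64 ± 0.71 did not pass (adjusted p = 0.587), and its 95% interval of −0.91 to 2.19 spans a fall as well as a 4.57-fold rise. Leaving out that mouse, normal mouse 4, gave 1.29, and without the mice numbered 4 the value was 1.44 (adjusted p = 0.185).

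Ltb was set beside B cell markers. The 5 B cell and follicle markers (such as Cd79a, a part of the B cell receptor) summed to 20.3 FPKM in normal mouse 4 and to 17.1 FPKM in normal mouse 3 receiving BBR, against 1.93 to 8.61 FPKM in the other 10 mice. These were also the 2 mice with the highest Ltb, at 1.98 and 2.37 FPKM. Cd79a read 12.3 and 10.3 FPKM in them. The other mice did not follow this order: of the colitis mice receiving BBR, mouse 4 had a marker sum of 8.05 FPKM with Ltb at 0.76 FPKM, and mouse 3 a sum of 3.55 FPKM with Ltb at 1.84 FPKM. All 5 markers were detected in some mouse of every group, none of them passed the limit in any comparison, and their part in the Ltb values was not tested.

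**Figure D2:**
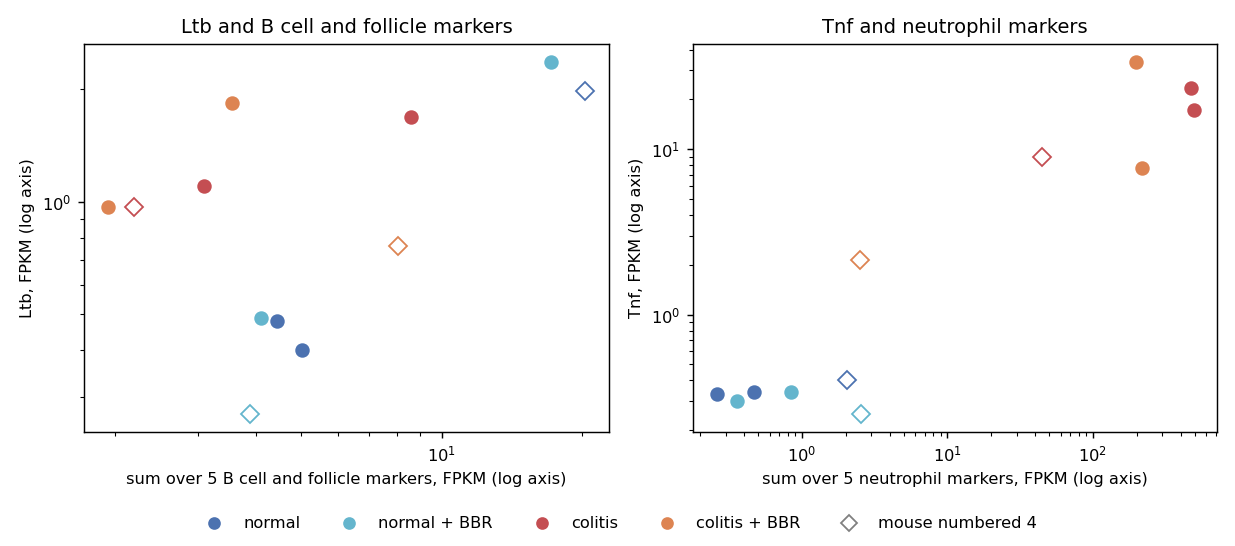
Left, Ltb against the summed FPKM of 5 B cell and follicle markers in each of 12 mice. Right, Tnf against the summed FPKM of 5 neutrophil markers (Ly6g left out). All axes are logarithmic, colors are the 4 groups and open diamonds are mice numbered 4. The 2 mice with the highest B cell sums (17.1 and 20.3 FPKM) had the highest Ltb, and Tnf was high in colitis mice with neutrophil sums of 45.0 to 492 FPKM.

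The receptors differed from each other. Tnfrsf1b, which encodes TNFR2, read 5.40, 5.06 and 5.12 FPKM in normal mice and 25.5, 63.4 and 26.1 FPKM in colitis mice. The normal mice were nearly alike and the lowest colitis mouse was far above them. The difference of 2.72 ± 0.63, a 6.60-fold higher level with a 95% interval of 2.52 to 17.2, passed the unadjusted limit (unadjusted P = 0.00112, exact permutation p = 0.1) but not the adjusted limit (adjusted p = 0.0613). The call was made in some fits: adjusted p was 0.00942 when only the 6 compared mice were fitted, 0.0355 with columns rescaled to a common total and 0.0235 with a term for the mice numbered 4. The value was 2.33 between the mice numbered 4 and 2.92 among the others.

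Tnfrsf1a, which encodes TNFR1, read 36.7, 37.1 and 41.2 FPKM in normal mice and 42.9, 62.4 and 57.0 FPKM in colitis mice. The groups did not overlap, but the lowest colitis mouse was just above the highest normal mouse. The difference was 0.48 ± 0.23, 1.39-fold (95% interval 0.985 to 1.97), and did not pass (adjusted p = 0.247). Within each mouse, the ratio of Tnfrsf1b to Tnfrsf1a was 0.124 to 0.147 in normal mice and 0.458 to 1.02 in colitis mice, 4.80-fold higher (exact permutation p = 0.1, the smallest possible). With both BBR arms together the ratio was 3.49-fold higher in colitis (exact permutation p = 0.01), but within the BBR arm alone it was 2.54-fold higher and the groups overlapped (exact permutation p = 0.2). In colitis mouse 2 and in colitis mouse 3 receiving BBR the receptor messages were at about the same level, with ratios of 1.02 and 1.03.

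The NF-κB subunits of the non-canonical branch showed no change that passed a limit. Nfkb2 read 13.3, 11.9 and 14.8 FPKM in normal mice and 13.1, 15.6 and 17.1 FPKM in colitis mice, a difference of 0.19 ± 0.19 (adjusted p = 0.541). It had the narrowest range of the 9, with 1.43-fold between its highest and lowest mouse of 12. Nfkb2 overlaps Psd and another annotated gene, and reads of overlapping genes may not be told apart. Relb read 28.7, 40.3 and 26.2 FPKM in normal mice and 29.9, 24.4 and 24.9 FPKM in colitis mice. It was the only member with a value below 0, at −0.25 ± 0.25 (adjusted p = 0.559), and that sign turned with median centring, where the value was 0.092.

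Of the feedback inhibitors, Nfkbia, which encodes IκBα, was the highest of all 9 genes in every group. It read 55.7, 50.9 and 52.1 FPKM in normal mice and 64.02, 107.9 and 72.6 FPKM in colitis mice, with no overlap. The difference was 0.59 ± 0.26, or 1.503-fold (95% interval 1.02 to 2.22), which passed the unadjusted limit (unadjusted P = 0.0418, exact permutation p = 0.1) but not the adjusted limit (adjusted p = 0.216). Of the 6 fits that left out 1 mouse, 1 passed the unadjusted limit, with differences of 0.37 to 0.74. It was 0.48 between the mice numbered 4 and 0.64 among the others.

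Tnfaip3, which encodes A20, read 31.4, 30.1 and 23.3 FPKM in normal mice and 34.5, 42.7 and 27.7 FPKM in colitis mice, and the groups overlapped. The difference of 0.29 ± 0.20 was not past a limit (adjusted p = 0.376), and its interval of 0.911 to 1.65-fold bounds what these 6 mice could hide. Birc3, which encodes cIAP2, read 34.6, 38.9 and 30.9 FPKM in normal mice and 40.0, 47.3 and 33.3 FPKM in colitis mice. Its difference was 0.20 ± 0.21 (adjusted p = 0.562). Birc3 has a near copy beside it in the genome, Birc2, and its value is uncertain where reads of 50 bases match both.

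Tnf was also set against the inhibitors within the same mouse. The ratio of Tnf to Tnfaip3 in each mouse was 0.0105 to 0.0172 in normal mice and 0.323 to 0.548 in colitis mice, 35.1-fold higher with no overlap (exact permutation p = 0.1). The ratio of Tnf to Nfkbia was 28.7-fold higher (exact permutation p = 0.1). Over both BBR arms the 2 ratios were 30.6-fold and 23.5-fold higher in colitis (exact permutation p = 0.005 for each, the smallest possible).

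**Figure D3:**
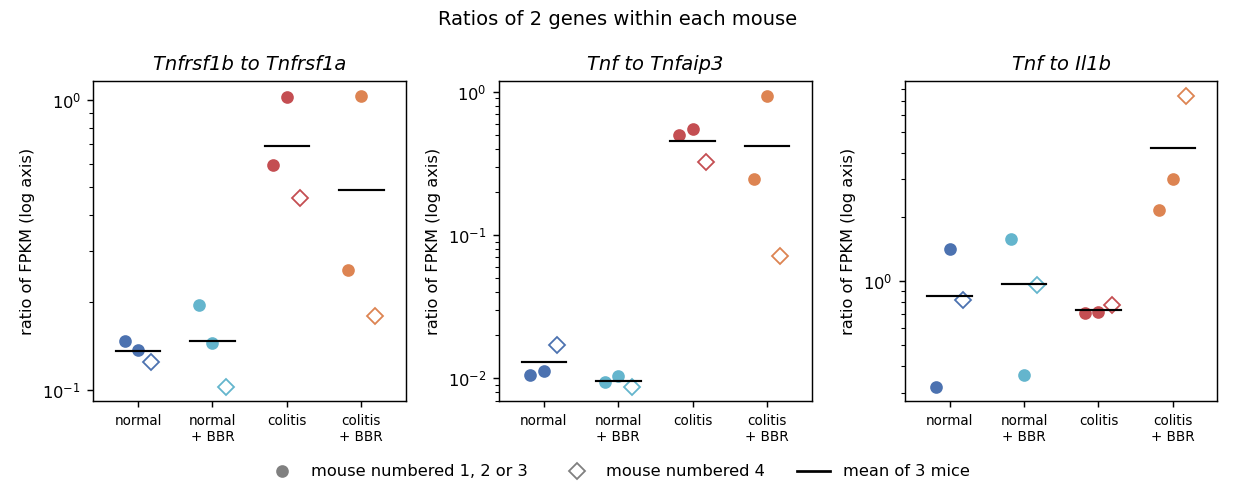
Ratio of the FPKM of 2 genes within each mouse (log axis), by group, for Tnfrsf1b to Tnfrsf1a, Tnf to Tnfaip3 and Tnf to Il1b. Circles are mice numbered 1 to 3, diamonds are mice numbered 4 and bars are means of 3 mice. Both left ratios were higher in colitis mice than in normal mice, and Tnf to Il1b was 0.706 to 0.771 in colitis mice, against 2.15 to 7.41 after BBR.

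Placed in order of their level in normal mice, Nfkbia (52.9 ± 2.54 FPKM, SD) was followed by Tnfrsf1a (38.3 ± 2.48), Birc3 (34.8 ± 3.99), Relb (31.7 ± 7.54), Tnfaip3 (28.3 ± 4.36), Nfkb2 (13.3 ± 1.44), Tnfrsf1b (5.19 ± 0.18), Ltb (0.953 ± 0.890) and Tnf (0.357 ± 0.038), with n = 3 each. Neighbours from Tnfrsf1a down to Tnfaip3 differed by less than their summed SDs, as did Ltb and Tnf. In colitis mice Tnf had moved from the last place to a mean of 16.5 ± 7.24 FPKM, beside Nfkb2 at 15.3 ± 2.01, and Tnfrsf1b to 38.3 ± 21.7, beside Birc3 at 40.2 ± 7.01. Those neighbours were within their spread of each other.

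BBR was then compared with no treatment in colitis mice. No member passed either limit in this fit, and in limma no gene of the 15315 passed the adjusted limit (0%), while 978 (6.39%, with 1.19% higher and 5.2% lower) met the looser limit. The members' differences ran from −1.03 to 0.18 with a median of −0.14, against −0.092 over all genes. For each of the 9 genes the 2 groups overlapped (1.42% of all genes were wholly higher with BBR and 5.66% wholly lower). The 3 colitis mice serve in this comparison and in the one with normal mice.

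Tnf read 7.68, 33.8 and 2.15 FPKM in colitis mice receiving BBR, against 8.94 to 23.4 FPKM in colitis mice. The group held both the highest and the lowest Tnf of the 6 colitis mice and spanned 15.7-fold. The difference was −0.88 ± 0.74 (95% interval −2.50 to 0.75, adjusted p = 1.00). It was −1.88 without mouse 3 of the BBR group (unadjusted P = 0.00476, adjusted p = 0.173) and 0.075 without mouse 4 of that group, so that the sign depended on 1 mouse. Tnfrsf1b read 10.1, 53.5 and 9.08 FPKM with BBR, and the same mouse 3 was again above the others. The difference was −1.03 ± 0.63 (95% interval −2.41 to 0.36, adjusted p = 0.944), and −1.85 without mouse 3 (unadjusted P = 0.00288, adjusted p = 0.140).

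The inhibitors and subunits had narrower intervals. Nfkbia read 70.3, 97.7 and 54.6 FPKM with BBR and differed by −0.14 ± 0.26. Tnfaip3 read 31.3, 36.0 and 29.9 FPKM and differed by −0.091 ± 0.20, an interval of 0.697 to 1.26-fold. Birc3 read 34.0, 43.2 and 28.3 FPKM and differed by −0.20 ± 0.21. In these 3 genes mouse 3 was once more the highest of its group. Tnfrsf1a (39.3, 51.8 and 50.7 FPKM), Nfkb2 (11.97, 15.8 and 15.6 FPKM), Relb (42.0, 29.9 and 21.2 FPKM) and Ltb (0.97, 1.84 and 0.76 FPKM) differed by −0.19, −0.080, 0.18 and −0.12. None of these passed a limit, and the signs for Ltb, Nfkb2, Nfkbia, Tnfaip3 and Relb turned under some other scaling or with 1 mouse left out.

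**Figure D4:**
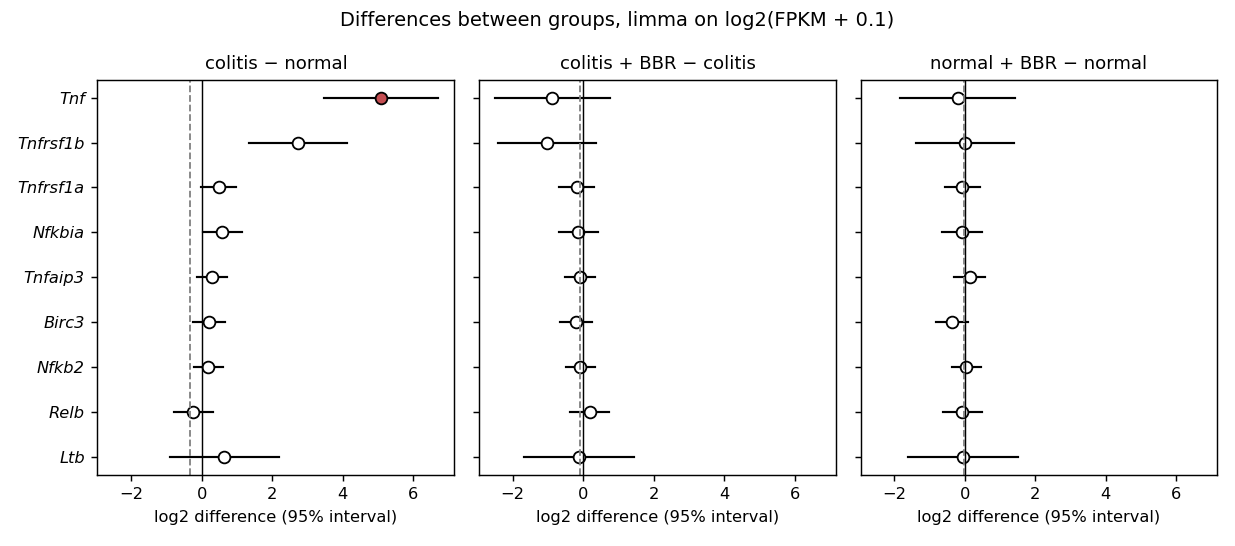
Differences of log2(FPKM + 0.1) for the 9 genes, with 95% intervals from limma, for colitis mice against normal mice, colitis mice receiving BBR against colitis mice and normal mice receiving BBR against normal mice. The filled point passed an adjusted p of 0.05, the dashed line is the median of all 15315 genes. Tnf at 5.08 in the left panel is the only filled point.

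In normal mice BBR gave no call, and limma called no gene at the adjusted limit (0%), with 208 genes (1.36%) at the unadjusted limit and no member among them. Tnf read 0.30, 0.34 and 0.25 FPKM, above the 0.0952 to 0.141 FPKM that 3 reads would give. Tnfrsf1b read 9.67, 4.96 and 2.89 FPKM, with a fitted difference of −0.00107 ± 0.63 and an SD of 3.47 FPKM against 0.18 FPKM in normal mice. Birc3 was the only member whose groups did not overlap, at 23.7, 26.7 and 30.7 FPKM with BBR against 30.9 to 38.9 FPKM (5.46% of all genes were separated in this direction and 4.17% in the other). Its difference was −0.36 ± 0.21 (unadjusted P = 0.105, adjusted p = 1.00), and between the mice numbered 4 it was −0.0089. The other values were 49.4, 34.4 and 28.2 FPKM for Tnfrsf1a, 53.1, 40.0 and 58.3 FPKM for Nfkbia, 31.6, 32.5 and 28.5 FPKM for Tnfaip3, 14.9, 13.1 and 13.2 FPKM for Nfkb2, 27.4, 33.7 and 28.3 FPKM for Relb, and 0.49, 2.37 and 0.27 FPKM for Ltb. The interaction, which asks whether BBR acted differently with and without colitis, was past no limit for any member. By limma it was called for no gene at the adjusted limit (0%) and for 371 genes (2.42%, with 0.699% higher and 1.72% lower) at the unadjusted limit. Its widest values were −1.03 ± 0.90 for Tnfrsf1b and −0.67 ± 1.05 for Tnf.

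With both BBR arms pooled as strata, colitis was compared over 6 mice against 6. Tnf rose by 4.75 ± 0.52 (26.8-fold, 95% interval 12.1 to 59.4, adjusted p = 0.00153, exact permutation p = 0.005). Over the alternative settings and the fits without 1 mouse, this rise ranged from 3.26 to 5.405, and the lowest value lay below that interval. Tnf was higher in each of the 6 colitis mice than in any of the 6 others, the only member of which this was so (0.816% of all genes). Tnfrsf1b rose by 2.21 ± 0.45 (4.62-fold, 95% interval 2.34 to 9.12, adjusted p = 0.0190, exact permutation p = 0.01), and the call was lost, with an adjusted p of 0.05004, without normal mouse 3. Nfkbia differed by 0.56 ± 0.18 (adjusted p = 0.0564, exact permutation p = 0.01). It was past the limit at 0.0481 without colitis mouse 4, at 0.0167 without mouse 4 of the colitis group receiving BBR and at 0.0316 without all mice numbered 4. Tnfrsf1a differed by 0.42 ± 0.16 (adjusted p = 0.0850, exact permutation p = 0.025). The other differences were 0.61 for Ltb, 0.28 for Birc3, 0.18 for Tnfaip3, 0.13 for Nfkb2 and −0.12 for Relb. Of the members 2 passed the adjusted limit (14.3% of all genes, 2.85% higher) and 4 the unadjusted limit (39% of all genes, 5.75% higher).

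Neutrophil markers were higher in colitis. All 6 passed the unadjusted limit in colitis against normal mice and 1 the adjusted limit. S100a8, a calcium-binding protein abundant in neutrophils, was at 0 in all 6 mice without DSS and its partner S100a9 was at 0.45 FPKM or less. In colitis mice S100a8 read 24.9 to 336 FPKM. Ly6g, in contrast, was listed at 259 to 793 FPKM in mice without DSS as well, so the sum was also taken over the other 5 markers, a choice made after the values were seen. That sum was 0.26 to 2.03 FPKM in normal mice, 0.36 to 2.54 with BBR, 45.0 to 492 in colitis mice, and with BBR in colitis it was 2.51 to 217. The mouse at 2.51, mouse 4, also had the lowest Tnf and Tnfrsf1b of its group, at 2.15 and 9.08 FPKM. The rest of that group went the other way. Mouse 2 had a sum of 217 FPKM with Tnf at 7.68 and Tnfrsf1b at 10.1 FPKM. Mouse 3 had a sum of 197 FPKM with Tnf at 33.8 and Tnfrsf1b at 53.5 FPKM. The sum with Ly6g was 261 to 708, 419 to 793, 602 to 4184 and 491 to 2946 FPKM in the same order. The 6 macrophage markers summed to 82.6 to 115 FPKM in normal mice, 74.9 to 104 with BBR, 108 to 319 in colitis mice, and 59.2 to 93.0 where BBR was given in colitis, none of them at 0 throughout a group. With BBR in colitis mice, 5 of the 6 (Csf1r, Itgam, C1qb, Adgre1 and C1qa) were lower at the unadjusted limit, with a list median of −1.14 and no adjusted call by limma. In bulk tissue, more cells of a type cannot be told apart from more RNA per cell. The 5 smooth muscle markers were lower, with sums of 43.0 to 454 FPKM in colitis mice against 1120 to 2282 FPKM in normal mice. With BBR the sums were 1674 to 3468 FPKM in normal mice and 278 to 2667 FPKM in colitis mice. All 5 passed the unadjusted limit lower in colitis against normal mice (15.9% of all genes), and 4 the adjusted limit over both arms (11.4%). The 3 endothelial markers (Pecam1, Kdr and Cdh5) were lower as well, with sums of 14.2 to 16.0 FPKM in normal mice, 13.4 to 14.5 with BBR, 3.61 to 8.70 in colitis mice and 2.69 to 8.71 with BBR in colitis. Pecam1 and Kdr passed the unadjusted limit lower in colitis against normal mice, and over both arms all 3 passed it and 2 the adjusted limit (Pecam1 and Kdr). The 3 fibroblast markers summed to 144 to 187 FPKM in normal mice, 161 to 366 with BBR, 123 to 440 in colitis mice and 116 to 144 with BBR in colitis. Of them Pdgfra was lower with BBR in colitis mice at the unadjusted limit (−1.14 ± 0.42, adjusted p = 0.637) and fell over both arms (−1.06 ± 0.30, adjusted p = 0.0409). The 5 T cell markers summed to 3.72 to 4.21, 3.16 to 6.5, 4.44 to 8.89 and 1.38 to 5.55 FPKM in the same order, and gave no adjusted call by limma in any comparison, with 1 higher in colitis against normal mice, 1 lower with BBR in colitis mice and 1 below 0 in the interaction at the unadjusted limit. Of the 3 squamous epithelial markers (0.84 to 3.27 FPKM in sum over the 12 mice), Krt5 was below the filter and the 2 tested passed no limit, nor did the leukocyte marker Ptprc (1.38 to 7.20 FPKM). The part of these cells in the Tnf and Tnfrsf1b values was not tested.

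The rest of the pathway was read from lists. Of 8 other NF-κB subunits and IκB proteins, 2 passed the unadjusted limit in colitis mice, both higher and neither at the adjusted limit, where 21.4% of all genes passed the unadjusted limit and 5.56% did so higher. Rel, the c-Rel subunit of lymphoid and myeloid cells, was at 1.49 ± 0.32 FPKM (SD, n = 3) in normal and 7.32 ± 1.65 FPKM in colitis mice, and Nfkbiz, an atypical nuclear IκB protein, was at 13.8 ± 3.28 and 34.1 ± 5.05 FPKM. Over both arms the 2 genes rose by 1.69 ± 0.41 (adjusted p = 0.0307, lost in 8 of 12 fits that left out 1 mouse) and 1.30 ± 0.21 (adjusted p = 0.00843, kept in all 12). In colitis mice receiving BBR, Rel read 2.11, 12.1 and 1.62 FPKM, against 1.24 to 1.70 FPKM in normal mice receiving BBR, so that in this arm mouse 3 alone was far above. The median of the list was 0.086 in colitis against normal mice. Rela and Nfkb1, which form the main NF-κB dimer, were at 18.6 ± 3.28 and 16.2 ± 1.21 FPKM in normal mice and 18.2 ± 5.29 and 15.7 ± 3.85 FPKM in colitis mice.

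Of 10 genes of the IKK complex and its upstream kinases and of 14 genes of the TNF receptor signaling complex, none passed the adjusted limit by limma in colitis against normal mice. At the unadjusted limit Ikbkb, the kinase that phosphorylates IκBα, was higher (0.43 ± 0.16, adjusted p = 0.159), Tab1 was lower and Casp8, the apoptotic caspase recruited to the receptor, was higher (0.90 ± 0.38, adjusted p = 0.203). The medians were −0.18 and −0.20, on the side of the median of all genes. Over both arms there was again no adjusted call by limma in either list. At the unadjusted limit 3 IKK genes (Tab1, Tab2 and Ikbke) and 4 receptor complex genes (Birc2, Traf1, Traf3 and Traf5) were then lower, against 1 higher in each list, while 33.3% of all genes passed it lower and 5.75% higher.

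Of the 9 other feedback genes, 2 rose and 1 fell over both arms (2.85% of all genes rose and 11.4% fell). Zc3h12a, which encodes the RNase Regnase-1 that degrades inflammatory messages, rose by 1.47 ± 0.22 (adjusted p = 0.00701, kept in all 12 fits that left out 1 mouse), with means of 12.3 ± 2.15 FPKM (SD) without DSS or BBR and 30.3 ± 5.24 FPKM in untreated colitis. Tnip3, an A20-binding protein, rose by 1.52 ± 0.42 (adjusted p = 0.0391), and Tnip1, another A20-binding protein, fell by 0.79 ± 0.22 (adjusted p = 0.0409). Both of these calls were lost when mice were left out, in 9 and 10 of 12 fits. The remaining 6 of the list passed no limit. Against normal mice alone, colitis gave 0 adjusted calls by limma in this list and 3 at the unadjusted limit, the same Zc3h12a, Tnip3 and Tnip1. Of 17 other TNF superfamily ligands and receptors, 15 were tested and 1 rose over both arms, Tnfsf10, the death ligand TRAIL (1.44 ± 0.43, adjusted p = 0.0465, lost in 10 of 12 fits without 1 mouse). At the unadjusted limit 3 were higher in colitis against normal mice, Tnfsf11, Tnfsf10 and Cd40 (5.56% of all genes), and none lower (15.9%). Over both arms Tnfsf11, Fas and Tnfsf10 were higher at that limit (5.75% of all genes) and Tnfsf12 was lower (33.3%).

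Of 13 inflammatory genes known as NF-κB targets, 7 were higher in colitis mice at the unadjusted limit and none lower (5.56% and 15.9% of all genes). At the adjusted limit 5 rose and none fell (0.653% and 0.424% of all genes), with a list median of 1.79. They were Nos2 (7.64 ± 1.08), which makes nitric oxide, the neutrophil chemokines Cxcl2 (6.08 ± 0.75) and Cxcl1 (5.77 ± 1.03), and the cytokines Il1b (5.11 ± 1.01) and Il6 (4.57 ± 0.76), with adjusted p of 0.0125, 0.00707, 0.0288, 0.0392 and 0.0218. Only the call of Cxcl2 was kept in all 6 fits that left out 1 mouse, and the highest adjusted p of the others was 0.0741 for Nos2, 0.131 for Cxcl1, 0.151 for Il1b and 0.115 for Il6. On this scale the rise of Tnf lay within the range of these 5, above that of Il6 alone. Il6 and Cxcl2 read 0.08 FPKM or less in normal mice, under the added 0.1. Their differences, and so this placing, depend on the value added. Lcn2, which encodes an iron-sequestering antimicrobial protein, passed the adjusted limit over both arms only (2.94 ± 0.66, adjusted p = 0.0248, lost in 7 of 12 fits without 1 mouse).

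**Figure D5:**
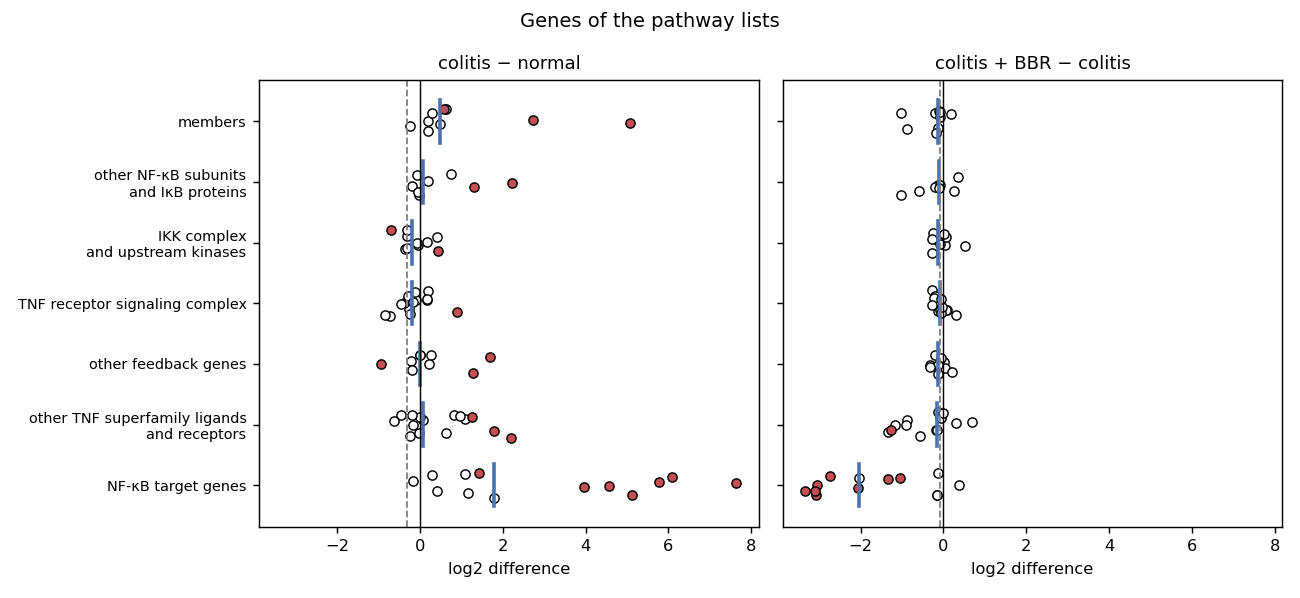
Log2 differences for the 9 members and the 6 pathway lists, in colitis mice against normal mice (left) and in colitis mice receiving BBR against colitis mice (right). Each point is a gene, filled where it met the unadjusted limit. Thick bars are list medians and the dashed line is the median of all 15315 genes. The median of the NF-κB targets was 1.79 on the left and −2.03 on the right, while that of the members was 0.48 and −0.14.

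With BBR in colitis mice, 8 of those 13 targets were lower at the unadjusted limit (5.2% of all genes were, as above), with a list median of −2.03, and by limma none was past the adjusted limit. Cxcl1, Ccl20, Sod2, Irf1 and Bcl2l1 did not pass, and Ccl20 read 5.23, 17.6 and 3.59 FPKM in colitis mice and 18.7, 9.97 and 3.95 FPKM with BBR. Cxcl2 differed by −3.33 ± 0.75 (adjusted p = 0.435), Il6 by −3.08 ± 0.76 (adjusted p = 0.454), Ptgs2, the inducible cyclooxygenase, by −2.75 ± 0.84 (adjusted p = 0.512) and Il1b by −3.06 ± 1.01 (adjusted p = 0.568). The mice receiving BBR were far apart in these genes, with Cxcl2 at 0.49, 3.73 and 0.26 FPKM and Ptgs2 at 0.05, 2.40 and 0.71 FPKM. In the same comparison the cell markers given above also had medians away from that of all genes, at −1.41 for neutrophils (none of the 6 past a limit), −1.14 for macrophages, −1.10 for fibroblasts, −0.89 for Ptprc, −0.55 for T cells, −0.31 for endothelium and 1.89 for smooth muscle (none past a limit), and their part in the targets' values was not tested. In the other 5 pathway lists 1 gene of 56 tested was lower at the unadjusted limit, Cd40, a receptor of antigen-presenting cells (−1.26 ± 0.47, adjusted p = 0.649). The members' own median of −0.14 was near that of all genes.

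Tnf was last set against Il1b and Il6, which were among the 8 targets lower with BBR at the unadjusted limit. Il1b read 24.4, 32.5 and 11.6 FPKM in colitis mice, against 3.58, 11.2 and 0.29 FPKM after BBR. The ratio of Tnf to Il1b within a mouse was 0.706, 0.718 and 0.771 in colitis mice, while BBR-treated colitis mice had 2.15, 3.02 and 7.41. The groups did not overlap and the ratio was 4.97-fold higher with BBR, a difference chosen after the values were seen and given without a test. The ratio of Tnf to Il6, taken after adding 0.1 to each, was 4.21 to 5.69 in colitis mice and 15 to 31.1 with BBR, 4.61-fold higher. Il6 read 0.15, 1.51 and 0.05 FPKM in colitis mice receiving BBR, so in mice 2 and 4 this ratio leans on the added 0.1. The Tnf to Il1b ratio of 7.41 rests on Il1b at 0.29 FPKM. In normal mice, where both genes of each pair were low, the ratios with BBR were 1.14 and 1.21 times those without, within the spread of the mice.

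Likeness between genes was measured as the root mean square difference of their standardized log2 values over the 12 mice, in SD, where 0 is the same pattern. Within the 9, Tnf and Tnfrsf1b were the closest pair (0.379), followed by Tnfrsf1b and Nfkbia (0.509) and by Tnf and Nfkbia (0.528). Nfkb2 and Relb were the least alike (1.83). Outside the 9, 11934 genes were compared with Tnf, and the closest were Trim40 (0.151), Mfsd2a (0.155), Clca4b (0.165), Bhmt2 (0.200) and Dmgdh (0.208), against a median of 1.69 over all. Trim40 averaged 17.98 FPKM in the normal and 124.5 FPKM in the colitis group. For the mean pattern of the 9 members the closest were Smox (0.216), Ly6c1 (0.236), Wfdc18 (0.251), Tnfrsf23 (0.255), itself a TNF receptor family gene, and Pold3 (0.257). The 12 points of each such comparison share the colitis groups and the mice numbered 4, which stood apart in their totals, and the values are a description.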

How the data were processed

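RNA of rectal samples from 12 mice was depleted of ribosomal RNA and sequenced in single reads of 50 bases by the study's methods (the labels name the tissue as colorectum and a TruSeq RNA kit for the libraries, with no word of ribosomal depletion). The submitters' processing notes name Bowtie2 2.2.5, RSEM 1.2.12 and the build mm9. The deposited table holds values that the authors computed per gene, read here as FPKM, although TPM could not be told apart from it. Total reads per mouse were not given in the sources used here, so precision was judged from the FPKM that 1 read adds, 52.0 to 77.0 divided by the gene's length in bases.

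Genes with a mean of at least 0.1 FPKM over 12 mice were tested on log2(FPKM + 0.1) with limma 3.58.1 (R 4.3.3), with 1 mean per group, a trended prior and Benjamini-Hochberg adjustment. The fit was tested on simulated data. Exact permutation tests used SciPy 1.17.1. The mice were labelled as separate samples of a group. The members and gene lists were chosen with earlier results of these data known, as were the ratios within a mouse, whose p are therefore descriptive. All 9 members were named. Of the other lists, genes past the adjusted limit or among the 3 of smallest P were eligible to be named. Other genes named were chosen after their values were seen. Alternatives covered the pseudocount, filter, scaling, model and each mouse in turn. Promoters were RefSeq sequences of build GRCm38.p6, which is not the build of the reads. 1 gene was left out of the marker lists and is not reported here.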

Additional observations from a re-analysis of the deposited data

How the results depend on the processing

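Differences of single members were counted for colitis against normal mice, for colitis over both arms and for BBR in colitis mice. For BBR in normal mice only Birc3 was counted, and for the interaction only Tnf and Tnfrsf1b. Of these differences under another setting, 328 kept their direction and side of the limit, 10 turned in sign and 11 gained a call. With 1 mouse left out, 228 were kept, 11 turned, 5 lost a call and 2 gained one. Some differences outside these counts turned as well. For BBR in normal mice, leaving out 1 mouse gave −0.855 to 0.596 for Ltb and −0.44 to 0.41 for Tnfrsf1b. The interaction for Nfkbia then ranged from −0.28 to 0.16, while Tnfaip3 kept its sign in both comparisons. The number of members past the adjusted limit in colitis against normal mice was 1 and became 2, with Tnfrsf1b added, when columns were rescaled to a common total, when only the compared groups were fitted and with a term for the mice numbered 4, and it ranged from 0 to 1 over the fits that left out 1 mouse. Over both BBR arms it was 2, and became 5 with median centring and 4 without the mice numbered 4, and ranged from 1 to 3 with 1 mouse left out. The split of all genes past the unadjusted limit in colitis against normal mice was 852 higher and 2428 lower, and 1488 higher and 1521 lower with quantile normalization. Over both arms it was 880 and 5100, and 1925 and 2132 with quantile normalization. The causes were not tested.

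The sign of Relb turned in colitis against normal mice with median centring (0.092), and over both arms with quantile normalization (0.059), with median centring (0.28) and with 1 mouse left out (−0.24 to 0.0060). For BBR in colitis mice, quantile normalization gave 0.079 for Ltb, 0.025 for Nfkb2 and 0.014 for Tnfaip3, and median centring gave 0.032 for Ltb, 0.071 for Nfkb2, 0.011 for Nfkbia and 0.060 for Tnfaip3. With 1 mouse left out, these values ranged from −1.88 to 0.075 for Tnf, −0.46 to 0.13 for Ltb, −0.19 to 0.049 for Nfkb2, −0.062 to 0.43 for Relb, −0.36 to 0.080 for Nfkbia and −0.25 to 0.063 for Tnfaip3. The interaction for Tnf ranged from −1.68 to 0.28. Without each mouse in turn, the rise of Tnf in colitis against normal mice was 4.78 to 5.47 and that of Tnfrsf1b 2.29 to 2.95.

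Mice of the same number in different groups were not shown to be paired. Their deviations from the group means correlated at 0.290 to 0.386 for number 1, 0.078 for number 2, 0.109 to 0.137 for number 3 and 0.357 to 0.751 for number 4, with a mean of −0.103 between different numbers. With the number as a replicate block, 2 members passed in colitis against normal mice (Tnf at 5.26, adjusted p = 0.0142, and Tnfrsf1b at 2.91, adjusted p = 0.0461), 2 over both arms and 0 with BBR in colitis mice. Over all genes, the adjusted calls in colitis against normal mice went from 165 to 734 with the block, 1412 with a term for the mice numbered 4, 804 without those mice, 488 with the compared groups alone and 258 with quantile normalization, and to 91 with a pseudocount of 0.01 and 71 with the filter at a mean of 1. Over both arms they went from 2188 to 5344 with the term and 6187 without the mice numbered 4, and to 1278 with quantile normalization, 1025 with median centring and 401 with columns rescaled to a common total. With BBR in colitis mice they were 0, then 1 with the block, at most 4 with any other setting and 58 without mouse 3 of the BBR group, none of them a member. At 6.39 to 11.9 estimated reads, the Tnf level of mice without DSS limits the precision of its fold.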

Other observations

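Among the 6 colitis mice Tnf was highest in mouse 3 receiving BBR, at 33.8 FPKM, while Il1b, Il6, Cxcl1, Cxcl2, Ptgs2 and Lcn2 were all highest in colitis mouse 2, with Il1b at 32.5 FPKM and Lcn2 at 264 FPKM. Nos2 read 147.8 FPKM in mouse 3 receiving BBR and 192.2 FPKM in colitis mouse 1, the highest of its values.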
